A study of Rattus norvegicus with 12 samples.

Results

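The change in gene expression between 4 h and 24 h of forskolin was measured in F11 cells as the difference between the 3 arrays of 24 h and the 3 arrays of 4 h, which are 6 of the 12 arrays of the study. F11 is a hybrid line, fused from rat dorsal root ganglion neurons and mouse neuroblastoma cells, and serves as a dividing stand-in for sensory neurons. All samples had 3 h in medium with 0.5% serum and then received forskolin at 10 µM, with 3 samples taken at each of 2, 4, 24 and 48 h. On every array the forskolin RNA carried the green dye Cy3, and a common reference, RNA of F11 cells in the same low serum with no forskolin, carried the red dye Cy5. Each value below is the log2 ratio of forskolin over reference on 1 array. The reference, and any dye effect peculiar to a gene, cancel in the difference of 24 h minus 4 h, but they do not cancel in the levels against the reference. No array here held cells kept in low serum for 24 h without forskolin, so time in low serum and time in forskolin cannot be told apart. The 4 h sample was always at position 2 of a slide and the 24 h sample at position 3, so an effect of position cannot be told apart from time either. The labels do not say that replicates were separate cultures, so the p-values reflect how these samples varied, and that variation may be technical. Mouse and rat transcripts of a gene may both bind a rat probe and were not separated.

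Forskolin switches on adenylyl cyclases, the enzymes that make cyclic AMP. Cyclic AMP frees the catalytic subunits of protein kinase A, which phosphorylate the transcription factor CREB and so start a first wave of genes within the hour, among them the Nr4a nuclear receptors and the kinase Sik1. Several products of that wave, such as the repressor forms of Crem and phosphodiesterases, feed back on the pathway. In neurons the same pathway is known for its part in axon regrowth and in neuropeptide expression, and in dividing neuroblastoma lines for slowing the cell cycle and raising neuronal genes.

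Of 17803 genes tested, 6898 (38.7%) were called different between 4 h and 24 h, at a Benjamini-Hochberg adjusted p under 0.05 in limma. Of all genes tested, 3729 (20.9%) were called higher at 24 h and 3169 (17.8%) lower. These shares are the background for every count of list members below. The median difference over all genes was 0.004 on the log2 scale. Most of these differences were small: 226 genes (1.27%) were called and past 2-fold upward, and 137 (0.77%) downward. The latter counts were 528 and 302 with an offset of 0 in the background correction, and 930 and 584 with Agilent's processed signals. The arrays read RNA of whole cultures, so fewer cells of a kind and less RNA per cell cannot be told apart. The balance of directions moved with the scaling. Of the called genes 54.1% were higher, but 79.4% were when each array was only centred on its median, and 46.9% when each array's median over the tested genes was then taken off. That last scaling was chosen after seeing the data.

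The genes past 2-fold came from different levels at 4 h. Among the 137 that were lower, 58 stood above the reference by at least 0.5 on the log2 scale at 4 h, and 34 of these were within 0.5 of it at 24 h. The other 79 were within 0.5 of the reference at 4 h and fell below it by 24 h. Among the 226 that were higher, 107 stood below the reference by at least 0.5 at 4 h, of which 54 were within 0.5 of it at 24 h and 52 were above it. A further 118 were within 0.5 at 4 h and above the reference at 24 h, and 1 was above it at both times. The step thus held early changes that were undone as well as late changes in genes that were near the reference at 4 h.

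**Figure D1:**
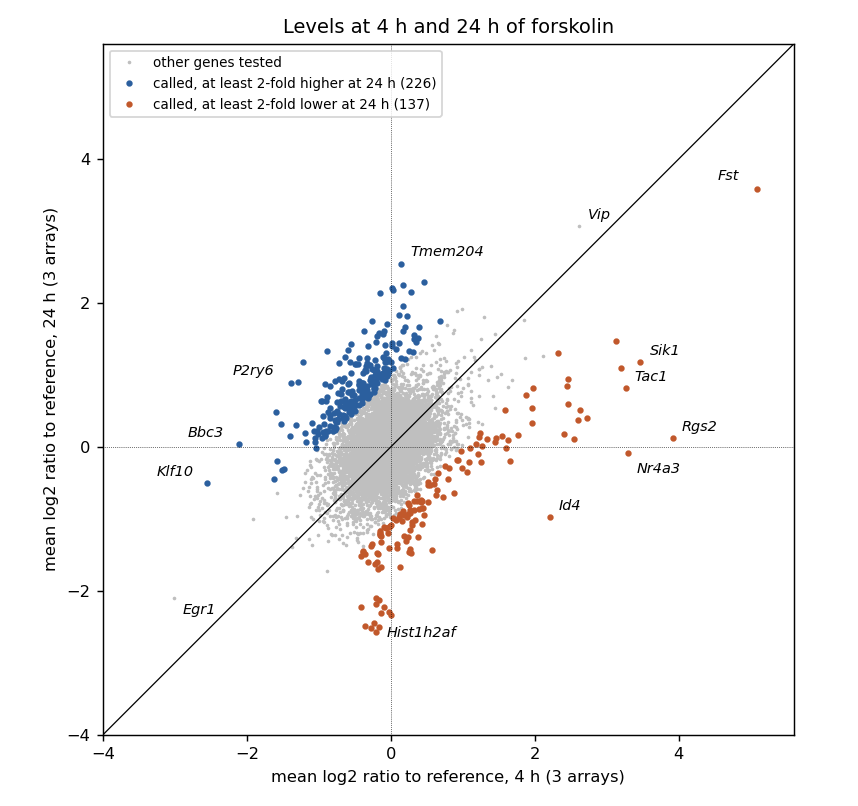
Mean log2 ratio to the reference at 24 h (vertical axis) against that at 4 h (horizontal axis), 3 arrays each; each point is 1 of the 17803 genes and the line marks equal levels. The 137 genes at least 2-fold lower form 2 arms, one from high levels at 4 h towards 0 (Rgs2, Nr4a3, Tac1) and one straight down from 0 (Hist1h2af). Many of the 226 genes at least 2-fold higher begin below 0 at 4 h, such as Klf10 and Bbc3.

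The 2 h and 48 h arrays are not arrays of the step, but they were not left out of the choice of these genes. They entered the filter that kept probes and the fit that gave the adjusted p. The contrast of 48 h with 2 h is therefore not a fully independent check. All 4 times come from the same slides and 1 fit, so they share its estimate of the spread. Of the 226 genes at least 2-fold higher at 24 h than at 4 h, 213 (94.2%) were called higher at 48 h than at 2 h, against 21.6% of all genes. Of the 137 lower genes, 126 (92.0%) were called lower at 48 h than at 2 h, against 20.1% of all genes. In 3 genes of each set the contrast of 48 h with 2 h was called in the opposite direction. Named genes among them were Klf10 of the higher set (-0.53, adjusted p = 2.0e-05 in limma) and Slit2 of the lower set (0.31, adjusted p = 0.0081). The median absolute difference over all genes was 0.0955 from 24 h to 48 h and 0.150 from 4 h to 24 h. Between 24 h and 48 h, 2634 genes (14.8%) were called, 19 of them past 2-fold upward and 8 downward. The 2 steps differed from each other in 3264 genes (18.3%) in limma's test of the difference of the 2 contrasts, in which the 24 h arrays enter both.

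The arrays of the step were alike in signal. Of 43379 non-control spots, the forskolin channel of these 6 arrays had 19889 to 20907 well above background and the reference channel 20890 to 23285. The forskolin channel had median signals of 67.1 to 70.5 over a local background of 49 to 52. Most probes are therefore dim, and the offset used in the background correction pulls their differences towards 0. Of 20 neuronal markers, 16 exceeded background clearly in the forskolin channel of all 6 arrays, and Rbfox3, a marker of mature neurons, on 0. Of 16 fibroblast markers 8 were above background on all 6 arrays, as were 3 of 16 glial markers on the array and 2 of 18 leukocyte and endothelial markers. Gfap, Pecam1, Cd3e and Col3a1 were above background on 0 of the 6.

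Several of the largest falls were of first-wave targets of cyclic AMP. Rgs2, a brake on G protein signalling, had log2 ratios of 3.91, 3.93 and 3.92 on the 4 h arrays and 0.08, 0.18 and 0.12 on the 24 h arrays. Its probe lies at chr13:57905038-57905097 in the files' build, rn3. Its fall was the largest of all genes tested, -3.79 ± 0.06 (SE) on the log2 scale or 13.9-fold (adjusted p = 1.6e-13 in limma). The groups lay far apart and the 3 arrays of each within 0.10 of each other. The orphan nuclear receptor gene Nr4a3 went from 3.43, 3.17 and 3.29 to -0.16, -0.01 and -0.09, a fall of 10.4-fold (adjusted p = 3.3e-11). Its 2 other probes differed by -2.63 and -0.14. Nr4a1 fell from 2.69, 2.49 and 2.47 to 0.23, 0.07 and 0.03 (difference -2.44 ± 0.08 (SE), adjusted p = 7.4e-11). The third family member, Nr4a2, differed by -1.22. In all 3 receptors no 24 h array reached the lowest 4 h array.

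Sik1, a kinase that holds back CREB's coactivators, stayed above the reference at 24 h. Its log2 ratios were 3.65, 3.44 and 3.33 at 4 h and 1.34, 1.11 and 1.10 at 24 h (difference -2.29 ± 0.12 (SE), adjusted p = 4.4e-09). Crem, whose short forms repress CREB targets, behaved alike with 3.24, 3.21 and 3.14 and then 1.26, 1.06 and 0.98 (adjusted p = 1.3e-09). A second Crem probe differed by -1.43. Pde4d, a phosphodiesterase that breaks down cyclic AMP, kept most of its rise: 1.74, 1.91 and 1.94 at 4 h and 1.24, 1.24 and 1.25 at 24 h (difference -0.62 ± 0.12 (SE), adjusted p = 9.8e-04, and -0.42, not called, with median centring). These feedback genes thus came down by different amounts and none of the 3 had reached the reference by 24 h.

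Of the 38 cAMP-responsive early genes listed, 30 were measured, of which 15 fell, 7 rose and 8 were not called, against 17.8% lower and 20.9% higher of all genes (median -0.19). Besides those above, Egr4 (-1.28), Cited2 (-1.14), Gem (-0.88), Ier3 (-0.85), Nfil3 (-0.76) and Fosl2 (-0.70) fell. Some of the fastest genes had come down before 4 h. Fos, the AP-1 subunit, had a mean of 1.22 at 2 h, -0.03, 0.12 and 0.09 on the 4 h arrays and -0.24, -0.22 and -0.28 on the 24 h arrays. Its forskolin channel was well above background on 3 of 3 arrays at 4 h and on 0 at 24 h. In that channel alone its signal was at least 1.27-fold higher at 4 h. The fall in its log2 ratios, which was smaller, had adjusted p = 0.0052 in limma. Later bounds for dim genes are likewise of the forskolin channel alone, and the adjusted p beside them is that of the log2 ratios. With median centring in place of loess Fos was not called (adjusted p = 0.48). The antiproliferative gene Btg2 went from a mean of 2.70 at 2 h to 0.97 at 4 h and 0.71 at 24 h (difference -0.26, adjusted p = 0.029), a call that was lost in 6 of the alternatives tried. It was -0.19 without the 4 h array of replicate 1 (adjusted p = 0.13) and -0.19 without the 24 h array of replicate 3 (adjusted p = 0.13). The phosphatase gene Dusp1 went from 2.04 to 0.85 and 0.22 (adjusted p = 5.8e-04).

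Promoters were searched for the word that CREB is known to bind, the cyclic AMP response element. Sequences were taken from RefSeq (GRCr8 assembly, 250 bases before to 50 after a gene's start), which gave a sequence for 7646 of the 17803 genes. The half-site TGACG, read on both strands, was in 57.1% of 21 early-gene promoters and in 32.6% of all. In other lists it was in 43.6% of 39 DNA replication, 43.5% of 23 cholesterol, 33.3% of 51 mitosis and 31.2% of 16 histone promoters. The full element TGACGTCA, which contains the half-site, was in 14.3% of early-gene promoters and in 3.18% of all. The early list was drawn up of genes known to respond to cyclic AMP, so these shares describe the list and do not test the response. Over every called gene, the full element was in 5.22% of 1589 promoters of genes called lower and in 2.51% of 1873 of genes called higher, but it was in 1 of 66 promoters (1.52%) of the genes past 2-fold downward. Only 1 start was searched for each gene, which need not be the start of Crem's short forms. The 110 bases before that start in Nr4a1 and Crem are printed as examples, with half-sites in capitals (CGTCA is the half-site on the other strand). Whether these half-sites take part in the response was not tested.
Nr4a1, chr7:134260028-134260137, plus strand: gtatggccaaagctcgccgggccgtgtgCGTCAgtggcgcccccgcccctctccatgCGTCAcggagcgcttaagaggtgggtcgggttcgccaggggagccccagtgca
Crem, chr17:58933956-58934065, plus strand: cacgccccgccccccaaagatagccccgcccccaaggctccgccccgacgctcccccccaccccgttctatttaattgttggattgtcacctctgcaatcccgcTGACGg

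Single genes of secreted peptides and factors changed by large amounts. Tac1, the precursor of substance P and neurokinin A, went from 3.38, 3.16 and 3.26 to 0.85, 0.80 and 0.80 (difference -2.45 ± 0.10 (SE), adjusted p = 5.4e-10) and stayed above the reference on all 3 arrays. Fst, encoding the activin trap follistatin, had the highest level of any gene at 4 h, 5.14, 5.08 and 5.05, and was still at 3.62, 3.65 and 3.48 at 24 h. Its difference of -1.51 ± 0.06 (SE) (adjusted p = 8.7e-10) was followed by one of -2.47 from 24 h to 48 h (adjusted p = 6.5e-11). Vip, the precursor of vasoactive intestinal peptide, moved the other way, from 2.61, 2.56 and 2.67 to 3.14, 3.04 and 3.02 (difference 0.45 ± 0.06 (SE), adjusted p = 3.8e-05), and dropped by 48 h to a mean of 1.32. Of the 4 mean levels, the 4 h one was the highest for Tac1 and Fst and the 24 h one for Vip. Of 17 neuropeptide and peptide hormone genes measured, 2 rose, 4 fell and 11 were not called, where 20.9% of all genes rose and 17.8% fell. The second that rose was Nppb, a natriuretic peptide (0.81). Pomc, the precursor of adrenocorticotropin and endorphin, fell from just above the reference (0.17, 0.12 and 0.19) to below it (-0.44, -0.43 and -0.48, adjusted p = 1.2e-06).

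Genes of BMP and activin signalling were among the larger falls. Id4, an inhibitor of basic helix-loop-helix factors from a family of BMP targets, crossed the reference: 2.30, 2.23 and 2.10 at 4 h and -0.89, -0.95 and -1.08 at 24 h. Its difference was -3.19 ± 0.07 (SE), 9.1-fold (adjusted p = 8.4e-12), and its other probe differed by -1.83. Id2 did the same from a lower start, 0.44, 0.51 and 0.44 to -0.86, -0.998 and -0.996 (adjusted p = 1.7e-09). At 48 h the mean was -1.49 for Id4 and -1.49 for Id2. Bambi, a decoy receptor for BMP and activin ligands, fell from 2.60, 2.34 and 2.43 to 0.66, 0.52 and 0.61 (adjusted p = 1.3e-09). Of 33 genes of TGF-beta, activin and BMP signals measured, 11 fell and 5 rose, where 17.8% of all genes fell and 20.9% rose. Those that rose included Gdf15 (0.82), Id1 (0.28) and the BMP antagonist Chrd (0.72).

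Other leading falls were of genes not yet described. The orphan receptor gene Gprc5b went from 2.54, 2.32 and 2.38 to 0.29, 0.12 and 0.12 (adjusted p = 5.0e-09), and the somatostatin receptor gene Sstr1 from 1.78, 1.53 and 1.68 to -0.30, -0.13 and -0.15 (adjusted p = 5.2e-10). Tent5a, which encodes a nucleotidyltransferase that extends RNA tails, had 2.56, 2.65 and 2.67 and then 0.49, 0.49 and 0.56 (adjusted p = 5.1e-11). All 3 came down towards the reference. Hnrnpdl, an RNA-binding protein gene, instead crossed it, from 0.62, 0.56 and 0.52 to -1.31, -1.49 and -1.49 (difference -2.00 ± 0.08 (SE), adjusted p = 9.0e-10). The serum- and stress-induced kinase gene Sgk1, from the list of FoxO targets, fell from 1.32, 1.24 and 1.20 to -0.13, -0.28 and -0.20 (adjusted p = 2.3e-09).

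**Figure D2:**
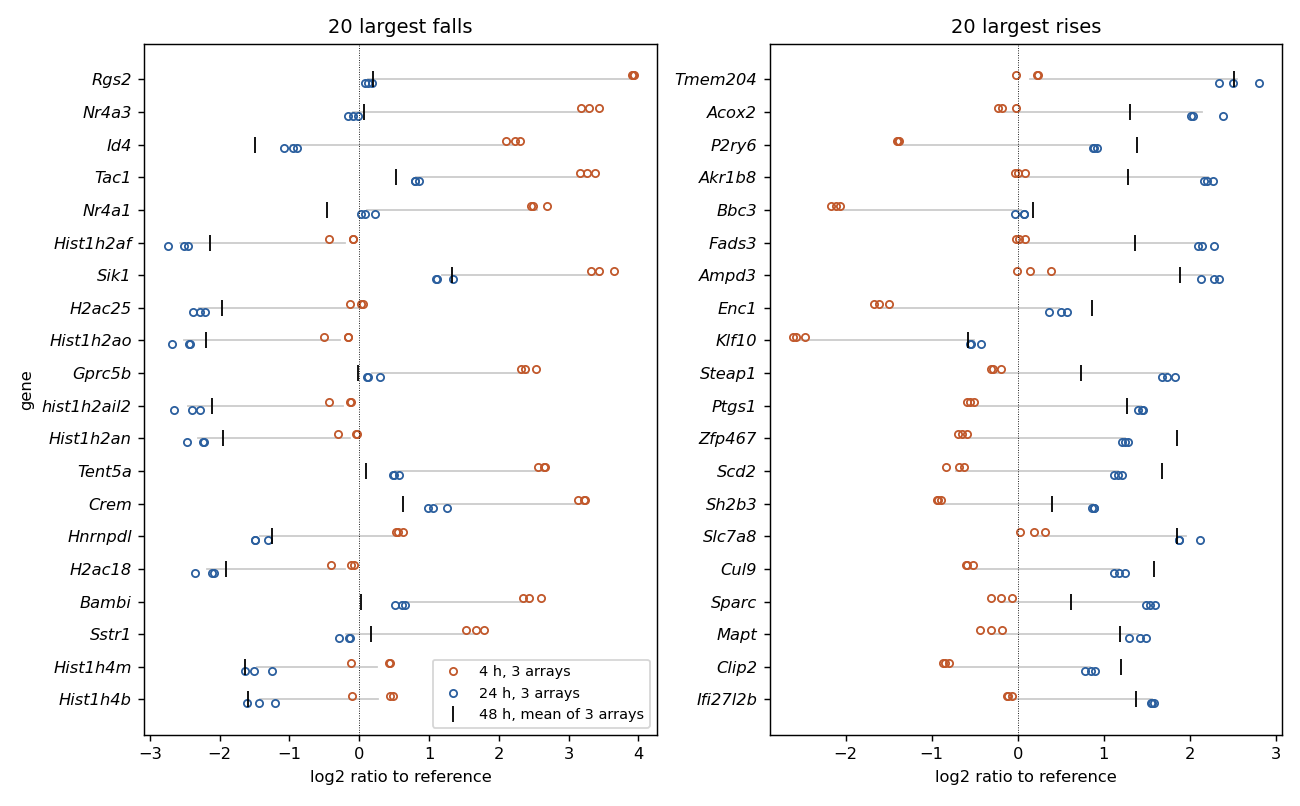
Log2 ratio to the reference (horizontal axis) of the 20 largest falls (left) and the 20 largest rises (right) on each of the 3 arrays of 4 h (orange circles) and 24 h (blue circles), with the 48 h mean as a black tick. In all 40 genes the 2 groups of circles do not overlap, and the genes were chosen for that difference.

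Some of the largest rises were recoveries from a trough at 4 h. Klf10, a Krüppel-like repressor induced by TGF-beta, had a mean of -0.05 at 2 h, -2.48, -2.57 and -2.61 on the 4 h arrays and -0.43, -0.56 and -0.54 on the 24 h arrays. The rise was 2.05 ± 0.07 (SE) (adjusted p = 9.9e-11) and left it below the reference; a second probe rose by 0.57. Bbc3, the gene of the death protein PUMA, had the same trough with -2.17, -2.11 and -2.07 at 4 h and was back at 0.07, -0.03 and 0.08 at 24 h (adjusted p = 1.8e-08). P2ry6, a receptor for the nucleotide UDP, overshot from -1.38, -1.40 and -1.39 to 0.89, 0.92 and 0.88 (adjusted p = 5.1e-11). Enc1, an actin-binding kelch protein of neurons, went from -1.49, -1.67 and -1.61 to 0.57, 0.37 and 0.51 (adjusted p = 9.8e-10), with a smaller rise at its other probe (0.59). None of these 4 had been below the reference by more than 0.5 at 2 h.

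Other genes that stood below the reference at 4 h rose as well, and several belonged to the early-gene list. Egr1, a zinc-finger immediate-early gene, had a mean of -1.70 at 2 h, -3.02, -3.11 and -2.91 at 4 h and -2.08, -2.11 and -2.11 at 24 h, a partial recovery of 0.91 ± 0.08 (SE) (adjusted p = 5.7e-07), and was at a mean of -3.42 at 48 h. Arc, a gene of synaptic plasticity, rose from -1.58, -1.66 and -1.52 to -0.22, -0.13 and -0.24 (adjusted p = 3.9e-09). The Wnt antagonist gene Dkk1 rose from -1.81, -1.96 and -1.96 to -0.91, -1.05 and -1.04 (adjusted p = 9.1e-07), and the GDNF co-receptor gene Ret from -1.05, -1.10 and -1.02 to 0.12, 0.07 and 0.17 (adjusted p = 5.1e-09). Ret's other 2 probes differed by 0.01 and -0.13. The MAP kinase feedback genes Dusp6 (-0.79, -0.84 and -0.91 to 0.03, 0.004 and -0.13), Dusp5 (0.55) and Spry1 (0.69) rose too. A second Spry1 probe differed by 0.18 and was not called. Of 12 such phosphatase and Sprouty genes 4 rose and 1, Dusp1, fell, where 20.9% of all genes rose and 17.8% fell. Mycn, the neuroblastoma oncogene, rose from -1.27, -1.32 and -1.32 to -0.91, -1.02 and -0.95 and remained below the reference (adjusted p = 2.1e-04).

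Most genes of DNA replication and division fell after 4 h. The steepest were core histones, the spools of DNA, whose messenger RNAs are made in S phase and lack poly(A) tails. Hist1h2af had log2 ratios of -0.44, -0.09 and -0.09 at 4 h and -2.75, -2.45 and -2.51 at 24 h, a fall of 5.14-fold (-2.36 ± 0.11 (SE), adjusted p = 2.5e-09). H2ac25 fell by 4.83-fold, from -0.14, 0.05 and 0.03 to -2.38, -2.22 and -2.28 (adjusted p = 4.7e-11). In both genes the array of replicate 1 was the lowest at 4 h and at 24 h. Of 19 replication-dependent histone genes measured out of 58 listed, 15 fell and 0 rose (median -1.20). H2A genes led (-2.24, -2.18 and -1.98 for Hist1h2ao, Hist1h2an and H2ac18). The H4 gene Hist1h4m differed by -1.71 and Hist1h4b by -1.69, but a second Hist1h4b probe by -0.30. H2B genes reached -1.35 (Hist1h2bg), linker H1f1 -1.10 and the H3 gene Hist2h3c2 -0.72. Of 6 variant histones, which are made outside S phase too, 5 fell, led by H2az1 (-0.94).

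Several H2A probes overlap in sequence, so their values are not separate measurements of separate genes. In ungapped alignment the 60-base probe of Hist1h2af matched that of Hist1h2ao at 55 of 59 shared positions, hist1h2ail2 at 47 of 51, Hist1h2an at 50 of 57 and H2ac18 at 52 of 59. The H2ac25 probe matched it at 22 of 52 and lies elsewhere in the message. The probes are given with their rn3 coordinates as in the files, with capitals where overlapping probes differ. The same conserved stretch of H2A thus stands behind 5 of the 20 largest falls.
Hist1h2af, chr17:48516845-48516904: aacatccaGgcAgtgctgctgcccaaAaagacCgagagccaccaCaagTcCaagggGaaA
Hist1h2ao, chr17:50345199-50345258: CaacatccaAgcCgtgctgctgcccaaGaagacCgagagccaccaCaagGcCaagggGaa
hist1h2ail2, chr17:50390646-50390705: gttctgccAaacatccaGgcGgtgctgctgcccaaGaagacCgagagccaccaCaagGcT
Hist1h2an, chr17:50355937-50355996: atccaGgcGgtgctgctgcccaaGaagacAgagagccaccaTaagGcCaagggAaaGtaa
H2ac18, chr2:191007772-191007831: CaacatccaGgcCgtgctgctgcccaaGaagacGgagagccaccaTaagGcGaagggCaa

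The replication machinery fell with the histones. Pcna, the sliding clamp of DNA polymerase, went from 0.54, 0.36 and 0.39 to -0.91, -1.22 and -1.09 (difference -1.50 ± 0.11 (SE), adjusted p = 1.5e-07). Chaf1b, which loads histones onto new DNA, fell from -0.30, -0.18 and -0.19 to -1.68, -1.57 and -1.61 (adjusted p = 9.0e-10). The helicase subunit gene Mcm3 had -0.17, -0.15 and -0.14 and then -1.22, -1.25 and -1.10 (adjusted p = 9.1e-09), and went on to a mean of -1.58 at 48 h. Nucleotide supply fell alongside: Dut, the dUTPase, by 2.13-fold (adjusted p = 8.5e-09), and the reductase subunit gene Rrm1 by 2.08-fold (adjusted p = 1.2e-07), although its other probes differed by -0.34 and -0.25. Of 50 S-phase genes measured, 42 fell and 1 rose, the polymerase subunit gene Pold1 (0.38). Their median difference was -0.49, from -0.07 at 4 h to -0.62 at 24 h and -0.97 at 48 h. With median centring in place of loess 23 were called lower, and 42 once the median over genes was taken off too.

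Most mitotic genes fell at this step and were lower again at 48 h. Ccna2, cyclin A2, went from -0.10, -0.12 and -0.18 to -1.27, -1.36 and -1.32 (-1.19 ± 0.06 (SE), adjusted p = 4.1e-09) and to a mean of -1.71 at 48 h. The spindle checkpoint gene Mad2l1 had 0.18, -0.01 and 0.04 and then -0.87, -1.18 and -0.99 (adjusted p = 8.1e-07). Securin, Pttg1, was already at -0.41, -0.33 and -0.39 at 4 h and fell to -1.32, -1.12 and -1.16 (adjusted p = 2.1e-07), as did the kinetochore gene Ndc80 (-0.81). Of 60 genes of mitosis and spindle measured, 43 fell and 1 rose, the phosphatase gene Cdc25b (0.27). The list median was -0.21 at 4 h, -0.70 at 24 h and -1.04 at 48 h. Median centring called 18 lower, and 38 with the median over genes taken off too. On the 2 h and 48 h arrays 54 of the 60 were called lower at 48 h than at 2 h.

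Regulators of G1, the phase before DNA replication, were called about as often as all genes. Cyclin D1, Ccnd1, had -0.08, -0.07 and -0.11 at 4 h and -0.21, -0.13 and -0.16 at 24 h (adjusted p = 0.58). The inhibitor p21, Cdkn1a, had -0.13, -0.07 and 0.005 and -0.11, -0.09 and -0.16 (adjusted p = 0.59). Of 21 genes in that group 5 fell, led by Cdk2 (-0.72), and 3 rose, shares close to those of all genes.

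The promoters of the division genes were searched for words known from such genes. The lists are textbook sets, so the shares below describe the lists and do not test the response to forskolin. E2F proteins, which drive S-phase genes, bind words such as TTTCCCGC and TTTGGCGC. One of these words was in 30.8% of 39 S-phase promoters, against 3.15% of all. CCAAT, the site of the factor NF-Y, was in 76.5% of 51 mitosis promoters, 81.2% of 16 histone promoters and 59.0% of the S-phase ones, against 37.9% of all. All words were counted on either strand, and none of these contains another. Genes called lower as a whole held CCAAT in 41.0% and genes called higher in 36.8%. E2F words were in 4.47% and 1.92% of them. Past 2-fold, E2F words were in 7.58% of 66 promoters of lower genes and in 4.9% of 102 of higher genes. Stretches of 110 bases before the start are printed for 2 genes of each group, as examples of where the words lie. Capitals mark an E2F word in Mcm5 and Tyms (Tyms differed by -0.41) and CCAAT, or ATTGG on the other strand, in Ccnb1 (-0.64), Ttk (-0.67), H2ac18 and H1f1.
Mcm5, chr19:13488703-13488812, plus strand: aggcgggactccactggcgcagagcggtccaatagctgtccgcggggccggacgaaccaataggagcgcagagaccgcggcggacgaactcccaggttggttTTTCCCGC
Tyms, chr9:120776084-120776193, minus strand: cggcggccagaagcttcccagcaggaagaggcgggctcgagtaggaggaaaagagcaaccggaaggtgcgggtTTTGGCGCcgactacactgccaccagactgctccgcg
Ccnb1, chr2:33655226-33655335, minus strand: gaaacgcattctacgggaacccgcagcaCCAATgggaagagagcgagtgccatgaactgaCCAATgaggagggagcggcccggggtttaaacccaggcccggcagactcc
Ttk, chr8:93634529-93634638, plus strand: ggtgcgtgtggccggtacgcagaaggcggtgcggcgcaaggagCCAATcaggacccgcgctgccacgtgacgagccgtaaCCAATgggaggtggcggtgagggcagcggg
H2ac18, chr2:186497161-186497270, plus strand: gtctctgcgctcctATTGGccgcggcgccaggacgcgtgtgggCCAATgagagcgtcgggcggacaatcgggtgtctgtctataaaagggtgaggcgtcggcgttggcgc
H1f1, chr17:41794869-41794978, minus strand: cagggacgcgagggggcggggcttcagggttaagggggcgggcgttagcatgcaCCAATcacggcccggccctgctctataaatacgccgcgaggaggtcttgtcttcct

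**Figure D3:**
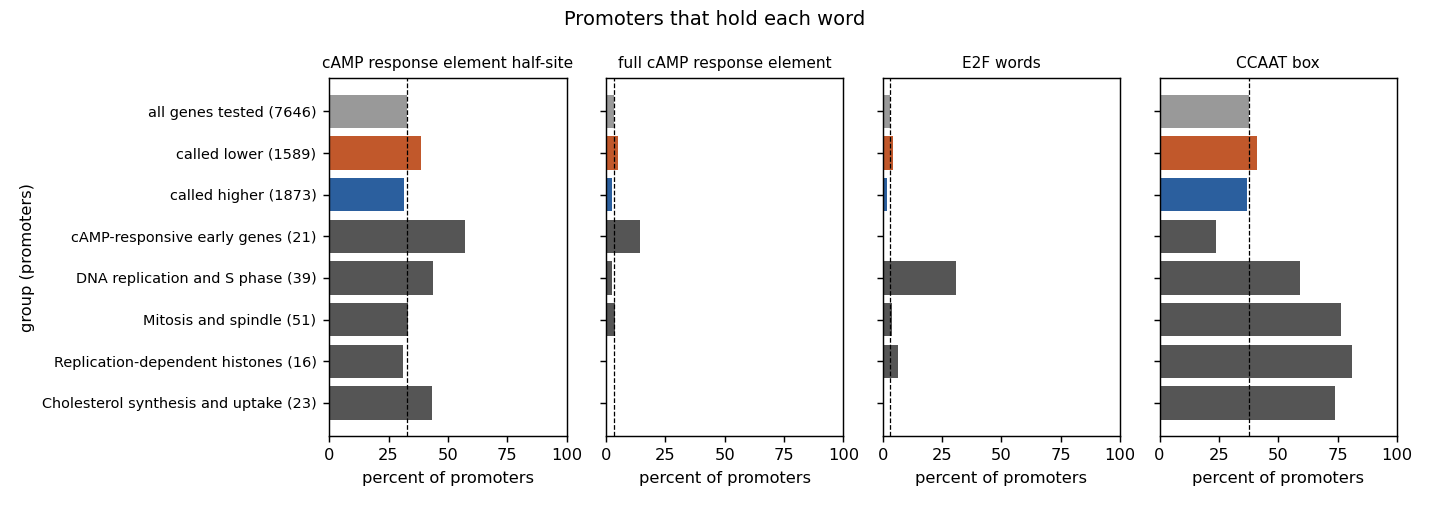
Percent of RefSeq promoters (horizontal axes) that hold each of 4 words, for all genes tested, for genes called lower and higher, and for 5 gene lists, with the number of promoters in brackets; the dashed line is the share of all genes. E2F words stand out in the S-phase list (30.8%), and CCAAT in the histone (81.2%), mitosis (76.5%) and cholesterol (73.9%) lists.

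Genes of growth metabolism fell more often than they rose. Of 43 genes of ribosome biogenesis 18 fell and 2 rose (median -0.14). Ubtf, which starts transcription of ribosomal RNA, fell by 1.68-fold (adjusted p = 0.0069), or by 0.54 on the log2 scale and not called with median centring. Ptma, a Myc target of chromatin, fell from -0.28, -0.25 and -0.29 to -1.03, -0.95 and -1.03 (adjusted p = 2.8e-06). The helicase gene Ddx21 differed by -0.66, but its other probes by -0.57 and 0.02. Of 29 genes of purine, arginine and polyamine metabolism 16 fell and 6 rose. Azin1, which protects ornithine decarboxylase, fell from 0.68, 0.52 and 0.59 to -0.42, -0.56 and -0.54 (adjusted p = 2.1e-08), whereas Odc1, the decarboxylase itself, rose from 0.70, 0.94 and 0.95 to 1.49, 1.60 and 1.64 (adjusted p = 2.3e-05). Arg2, a mitochondrial arginase, fell (-0.76), while Asl, which makes arginine, rose (0.85). Of 44 respiratory chain genes 15 fell and 1 rose, all by less than 0.5, with cytochrome c, Cycs, at -0.46 (adjusted p = 5.1e-06). With median centring 6, 5 and 1 genes of these 3 groups were called lower, and 16, 14 and 13 with the median over genes taken off too. Of the ribosomal protein genes 8 of 53 rose and 1 fell (15.1% and 1.9%), below the 20.9% and 17.8% of all genes. The sign of their median changed with the scaling (0.06, and -0.056 under that last scaling).

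Genes of lipid synthesis rose. Msmo1, a late enzyme of cholesterol synthesis, went from 0.23, 0.17 and 0.28 to 1.80, 1.77 and 1.89, 3.02-fold higher (1.59 ± 0.06 (SE), adjusted p = 1.8e-10). Hmgcs1, which makes the precursor of mevalonate, rose from 0.39, 0.39 and 0.41 to 1.57, 1.68 and 1.76 (adjusted p = 1.7e-08), with a smaller rise at a second probe (0.42). Fdft1, squalene synthase, had -0.05, -0.07 and 0.01 and then 1.12, 1.27 and 1.27 (adjusted p = 8.9e-08). Mvd, the decarboxylase of mevalonate, rose from -0.40, -0.37 and -0.33 to 0.67, 0.85 and 0.82 (adjusted p = 5.1e-09), and Insig1, the sterol-sensing anchor of SREBP, from 0.33, 0.39 and 0.33 to 1.48, 1.39 and 1.49 (adjusted p = 3.8e-09). Of 29 genes of cholesterol synthesis and uptake measured, 21 rose and 1, the exporter gene Abca1 (-0.15, well above background on 1 of 3 arrays at 24 h), fell (median 0.39). Sqle, squalene epoxidase, differed by 0.97. The list median was 0.05 at 4 h, 0.44 at 24 h and 0.48 at 48 h.

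Of 23 cholesterol promoters 73.9% held CCAAT, a word known to sit beside sterol-responsive sites, against 37.9% of all. A sterol response word, TCACNCCAC, was searched for after the data had been seen and was in 0 of the 23 and in 1.03% of all. That count says only that these letters are not in these windows. The stretches before the starts of Msmo1 and Fdps (1.13) are printed with CCAAT in capitals.
Msmo1, chr16:29747003-29747112, plus strand: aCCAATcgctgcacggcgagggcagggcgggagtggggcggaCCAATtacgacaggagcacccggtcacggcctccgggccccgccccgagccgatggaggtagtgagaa
Fdps, chr2:176804817-176804926, minus strand: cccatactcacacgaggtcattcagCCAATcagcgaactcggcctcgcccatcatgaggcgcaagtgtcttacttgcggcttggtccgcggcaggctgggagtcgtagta

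Fatty acid synthesis rose with the sterol genes. Scd2, a stearoyl-CoA desaturase of neural tissue, crossed the reference from -0.63, -0.84 and -0.68 to 1.17, 1.11 and 1.21 (1.88 ± 0.06 (SE), adjusted p = 1.2e-10), and its 2 other probes differed by 0.53 and 0.61. Its relative Scd rose from -0.10, -0.39 and -0.22 to 0.79, 0.79 and 0.73 (adjusted p = 9.3e-07). Fads3, of the desaturase cluster, went from -0.02, 0.01 and 0.08 to 2.10, 2.15 and 2.28 (adjusted p = 1.2e-10). Srebf1, the transcription factor of this programme, rose from -0.86, -0.90 and -0.77 to 0.32, 0.45 and 0.44 (adjusted p = 1.0e-08), and its 2 other probes differed by 1.32 and 0.10. Acly, which supplies acetyl-CoA, and Fasn, the synthase, differed by 0.99 and 0.76. Of 27 measured genes 19 rose and 2 fell (median 0.43). Genes of fatty acid oxidation also rose more often than they fell, with 11 of 23 higher and 3 lower (47.8% and 13.0%, against 20.9% and 17.8% of all genes). Acox2, the peroxisomal oxidase of branched chains, had -0.18, -0.02 and -0.23 at 4 h and 2.01, 2.38 and 2.03 at 24 h (adjusted p = 4.6e-10), although only 1 of its 3 arrays at 4 h was well above background in the forskolin channel. Cpt1c, the neuronal carnitine transferase, rose (0.75), while Cpt1a, the widespread form, fell (-0.40).

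**Figure D4:**
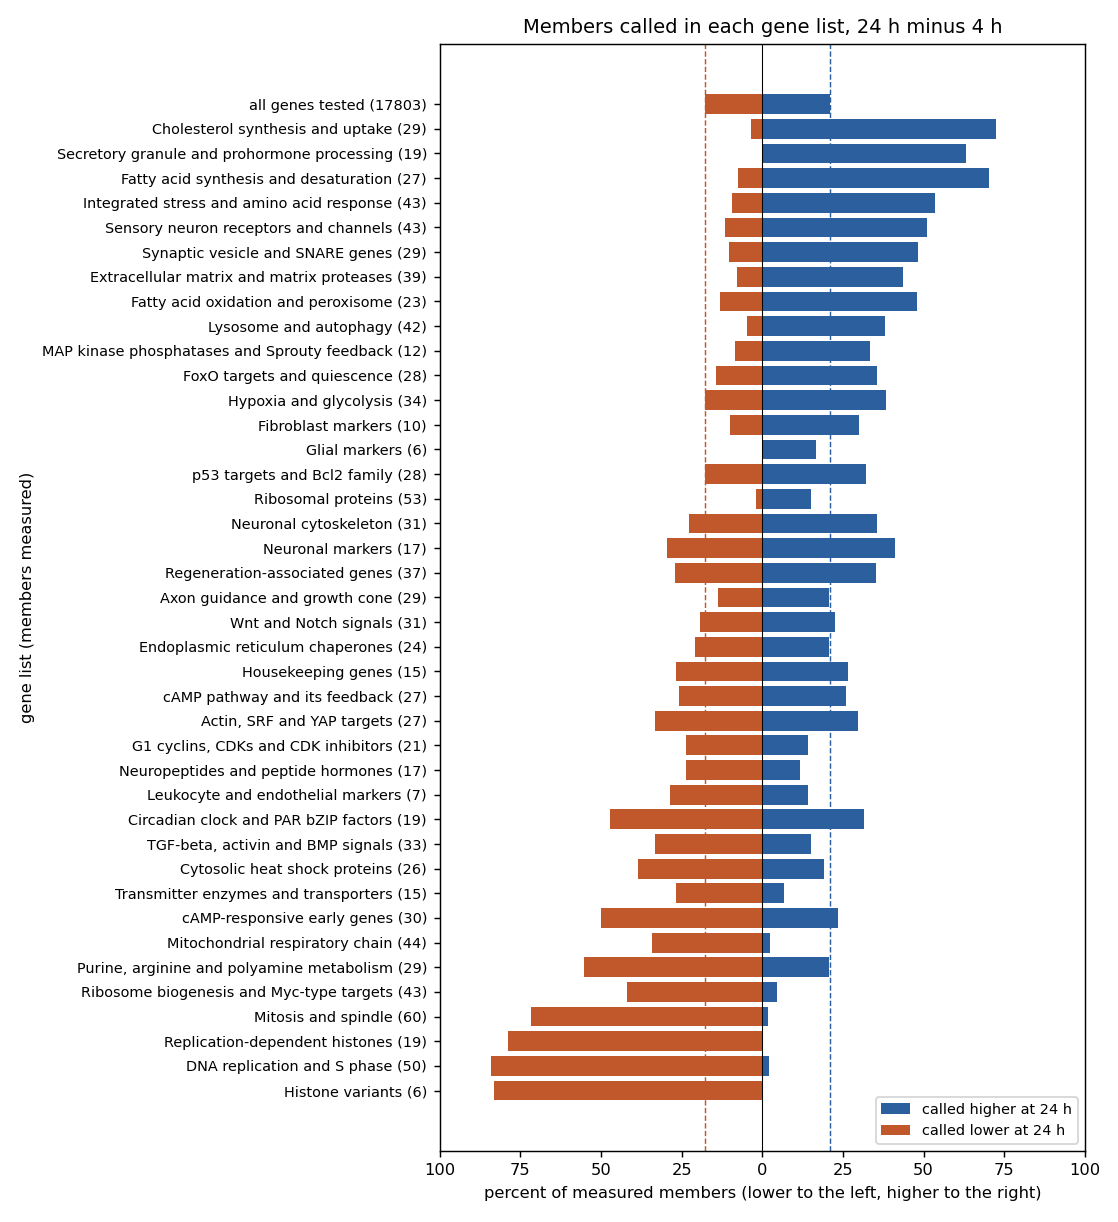
Percent of the measured members of each gene list called higher (right, blue) or lower (left, orange) at 24 h than at 4 h, with all 17803 genes in the top bar and as dashed lines (20.9% higher and 17.8% lower). Histones, S phase and mitosis lie at the foot with 72% to 84% of members lower, and cholesterol, secretory granule and fatty acid synthesis genes at the head with 63% to 72% higher.

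Amino acid and stress genes rose more often than they fell. Slc7a8, a carrier of neutral amino acids, went from 0.31, 0.03 and 0.18 to 2.12, 1.88 and 1.87 (1.78 ± 0.09 (SE), adjusted p = 4.1e-09), and the glutamine carrier gene Slc1a5 from -0.54, -0.54 and -0.52 to 0.76, 0.78 and 0.81 (adjusted p = 4.3e-10). Trib3, a pseudokinase induced by Atf4, crossed the reference from -0.39, -0.35 and -0.35 to 0.59, 0.59 and 0.61 (adjusted p = 4.3e-09) and was back at a mean of 0.05 at 48 h (adjusted p = 8.1e-06). Nupr1, a stress-induced chromatin protein gene, rose from 0.09, 0.03 and 0.01 to 1.00, 0.98 and 0.98 (adjusted p = 2.2e-08). Of 43 genes of the integrated stress and amino acid response 23 rose and 4 fell (median 0.27). The factors Atf4 (0.41), Atf5 (0.90) and Ddit3 (0.74) were among those that rose. The list median was 0.07 at 4 h, 0.34 at 24 h and 0.15 at 48 h, and from 2 h to 48 h 11 members were called higher and 10 lower. Chaperones of the endoplasmic reticulum had 5 up and 5 down of 24, near the shares of all genes, with Hspa5 (BiP) higher (0.54) and calreticulin, Calr, lower (-0.37). Of 26 cytosolic heat shock genes 10 fell, led by Bag3 (-0.70), and 5 rose, among them the factor Hsf1 (0.81). Among genes of glucose uptake and glycolysis 13 of 34 rose and 6 fell, with the glucose carrier Slc2a1 at 0.90 and the lactate carrier Slc16a3 at -0.57.

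Secretory granule genes rose more often than they fell, whereas transmitter genes did not. Secretory granules are the vesicles that store peptides and amines, and 12 of 19 of their genes rose while 0 fell (median 0.22). Slc18a1, the vesicular carrier of monoamines, went from -0.13, -0.39 and -0.47 to 1.499, 0.99 and 0.99 (adjusted p = 6.3e-06). Chga, chromogranin A, rose from -0.10, -0.14 and -0.23 to 0.54, 0.56 and 0.52 (adjusted p = 2.4e-07) and by a further 0.85 to 48 h (adjusted p = 4.4e-07). The granule membrane gene Ptprn rose from 0.94, 0.82 and 0.99 to 1.78, 1.95 and 1.95 (adjusted p = 2.9e-06). Th, which makes the dopamine precursor, rose from 0.27, 0.30 and 0.41 to 1.43, 1.54 and 1.53 (adjusted p = 3.7e-09). It was the only riser among 15 genes of the transmitter list, in which Slc18a1 was not counted. Of these 15 genes 4 fell, led by the vesicular acetylcholine carrier Slc18a3 (0.34, 0.27 and 0.47 to -0.59, -0.42 and -0.38, adjusted p = 1.0e-06). Among the 4, Tph1 of serotonin synthesis was well above background on 0 of 3 arrays at 24 h and at least 1.39-fold higher at 4 h (adjusted p = 4.9e-04). A second Tph1 probe differed by -0.09 and was not called.

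Of 29 synaptic vesicle and SNARE genes 14 rose and 3 fell. The synuclein gene Sncg rose from 0.04, -0.03 and -0.18 to 1.11, 1.09 and 1.04 (adjusted p = 6.5e-08) and again to a mean of 2.08 at 48 h. Dnm1, the dynamin of vesicle retrieval, rose (0.68), as did Snap25 (0.53) and Syp (0.37). The 3 forms of vesicle protein SV2 parted: Sv2b (0.76) and Sv2a (0.30) rose, whereas Sv2c fell from 0.91, 0.86 and 1.01 to -0.06, 0.07 and -0.05 (adjusted p = 2.2e-07). Sv2b was uneven at 4 h (-0.45, 0.26 and 0.02).

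Channels and receptors of sensory neurons rose more often than they fell, 22 of 43 against 5. Cacna1b, the pore of N-type calcium channels, went from -0.36, -0.51 and -0.28 to 0.82, 0.85 and 1.00 (1.28 ± 0.07 (SE), adjusted p = 8.0e-09). Trpv2, a heat- and stretch-gated channel gene, rose from 0.08, -0.11 and 0.03 to 1.11, 1.23 and 1.21 (adjusted p = 4.3e-08). Other channel genes near 2-fold were Cacna1c (0.95) and Kcnh2 (0.99). Rises of the sodium channel genes Scn9a (0.38) and Scn2a (0.26) and of the neurotrophin receptor gene Ntrk3 (0.52) were smaller. Those that fell included the transcription factor genes Isl1, from 0.30, 0.36 and 0.39 to -0.60, -0.49 and -0.46 (adjusted p = 6.6e-08), Pou4f2 (-0.59) and Runx1 (-0.23).

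Genes of the neuronal cytoskeleton changed in both directions. Mapt, the gene of tau, rose from -0.31, -0.44 and -0.18 to 1.29, 1.42 and 1.49 (1.71 ± 0.10 (SE), adjusted p = 9.2e-09), and peripherin, Prph, from -0.40, -0.30 and -0.32 to 0.52, 0.52 and 0.66 (adjusted p = 3.3e-08). The neurofilament light chain gene Nefl fell from 1.80, 1.71 and 1.77 to 0.10, 0.22 and 0.17 (-1.60 ± 0.10 (SE), adjusted p = 2.3e-08). Nefm (-0.74), Nefh (-0.37) and Ina (-0.36) fell with it, so that 4 neurofilament genes went down while peripherin, their partner filament in peripheral neurons, went up. Microtubule genes Map1b (0.77), Map6 (0.75), Tubb3 (0.51) and Clip2 (1.68) rose, and the doublecortin-like kinase Dclk1 fell (-0.85), although its other probes differed by 0.31 and -0.07. In all 11 of 31 cytoskeleton genes rose and 7 fell (35.5% and 22.6%, against 20.9% and 17.8% of all genes). Of 17 general neuronal markers 7 rose and 5 fell, and the sign of their small median changed with the scaling.

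Axon growth genes followed no single direction. Slit2, a repellent ligand of axons, had 1.57, 1.62 and 1.63 at 4 h and -0.05, 0.02 and -0.01 at 24 h (difference -1.62 ± 0.08 (SE), adjusted p = 3.8e-09), after a mean of -0.01 at 2 h and before one of 0.30 at 48 h. Slit3 fell further below the reference, from -0.44, -0.46 and -0.46 to -1.20, -1.16 and -1.27 (adjusted p = 7.0e-08). Plxnc1, a semaphorin receptor gene, rose from -0.51, -0.47 and -0.52 to 0.63, 0.66 and 0.65 (adjusted p = 1.6e-09). Of 29 guidance and growth cone genes 6 rose and 4 fell, near the shares of all genes. Among 37 regeneration-associated genes 13 rose and 10 fell (35.1% and 27.0%, against 20.9% and 17.8% of all genes). Those that rose included the adhesion gene L1cam (-0.80, -0.79 and -0.64 to -0.08, 0.15 and 0.21, adjusted p = 7.5e-05), Klf7 (0.83) and Stat3 (0.79). The growth-cone gene Gap43 was not called, with -0.09, -0.33 and -0.34 at 4 h and -0.11, -0.29 and -0.30 at 24 h (adjusted p = 0.9). Flrt3, an adhesion gene of axons, was well above background on 3 of 3 arrays at 4 h and 0 of 3 at 24 h and at least 1.88-fold higher at 4 h (adjusted p = 1.9e-06).

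**Figure D5:**
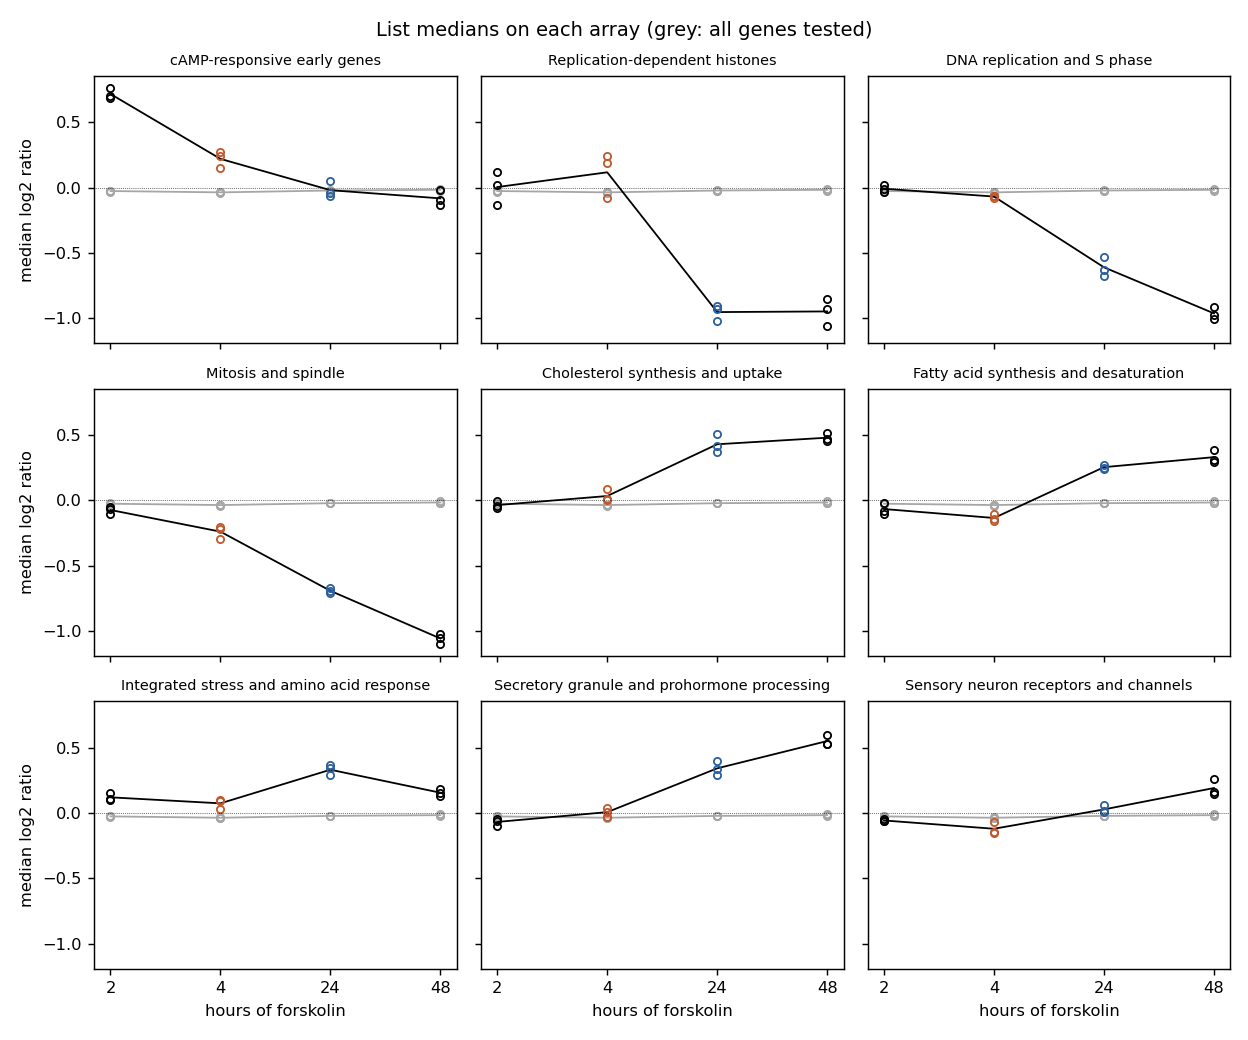
Median log2 ratio to the reference (vertical axis) of 9 gene lists on each of the 12 arrays against hours of forskolin (horizontal axis, evenly spaced), with 4 h in orange, 24 h in blue and all genes tested in grey; lines join the means of 3 arrays. The histone median goes from 0.14 at 4 h to -0.97 at 24 h and -0.91 at 48 h, whereas the S phase and mitosis medians are lower at 48 h than at 24 h, and the stress list is highest at 24 h.

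Matrix and lysosome genes rose more often than they fell. Sparc, a collagen-binding matrix protein gene, rose from -0.32, -0.20 and -0.06 to 1.495, 1.59 and 1.54 (1.73 ± 0.07 (SE), adjusted p = 7.8e-10) and was down to a mean of 0.62 at 48 h (adjusted p = 2.2e-06). Col18a1, a basement membrane collagen gene, rose from -0.48, -0.43 and -0.33 to 0.80, 0.91 and 0.96 (adjusted p = 4.7e-08), and Lama5, a laminin chain, by 1.06 at its brightest probe, against 0.67 and 0.05 at the others. Of 39 matrix genes 17 rose and 3 fell, fibronectin, Fn1, among the latter (-0.63). Of 42 lysosome and autophagy genes 16 rose, such as cathepsin D, Ctsd (-0.14, -0.13 and -0.05 to 0.53, 0.54 and 0.55, adjusted p = 3.1e-07), and Tfeb, their regulator (0.62). The 2 that fell were Map1lc3b (-0.76), whose other probes differed by 0.13 and 0.04, and Scarb2 (-0.17).

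Clock, survival and insulin-pathway genes changed in both directions. Of 19 genes of the circadian clock and its PAR bZIP factors 6 rose, Bmal1 first (-0.52, -0.60 and -0.55 to 0.35, 0.17 and 0.22, adjusted p = 2.5e-06) with Per2 (0.64), and 9 fell, Bhlhe41 first (2.43, 2.29 and 2.28 to 1.37, 1.24 and 1.31, adjusted p = 2.4e-08). Nothing here gives the clock phase of the cultures. Of 28 p53 targets and Bcl2 relatives 9 rose (32.1%, against 20.9% of all genes), Bbc3 above all. Another 5 fell (17.9%), near the 17.8% of all genes. Bcl2l1, the survival gene Bcl-xL, rose at its brightest probe (0.75) and differed by -0.04 and 0.23 at the others. Igfbp4, a binder of insulin-like growth factors, rose from 0.02, 0.08 and -0.03 to 1.47, 1.39 and 1.46 (adjusted p = 4.1e-09), with 0.31 at its second probe. Adcy6, an adenylyl cyclase, rose from 0.03, 0.04 and -0.04 to 0.90, 0.92 and 0.94 (adjusted p = 1.3e-07). Of 27 genes of the cAMP pathway 7 rose and 7 fell (25.9% each, against 20.9% and 17.8% of all genes).

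Many of the largest rises were of genes not yet described. Tmem204, a transmembrane protein gene whose probe lies at chr10:14304582-14304641 (rn3), rose the most among genes with a current symbol, from 0.22, -0.02 and 0.24 to 2.34, 2.81 and 2.50 (2.40 ± 0.11 (SE), 5.28-fold, adjusted p = 2.3e-09), with a mean of 2.52 at 48 h. Akr1b8, an aldo-keto reductase, went from -0.03, 0.09 and 0.003 to 2.20, 2.27 and 2.16 (adjusted p = 4.7e-11) and Steap1, of the metalloreductase family, from -0.19, -0.29 and -0.31 to 1.83, 1.73 and 1.67 (adjusted p = 1.2e-10). Both were lower again at 48 h, with means of 1.29 and 0.74. Ampd3, which deaminates AMP, rose from 0.38, -0.01 and 0.15 to 2.28, 2.13 and 2.34 (adjusted p = 3.9e-09), the largest rise among the purine genes. Ptgs1, the constitutive cyclooxygenase, rose from -0.55, -0.59 and -0.50 to 1.46, 1.44 and 1.40 (adjusted p = 6.6e-11). The adaptor gene Sh2b3 crossed the reference, -0.89, -0.92 and -0.93 to 0.88, 0.86 and 0.89 (adjusted p = 5.1e-11), as did the zinc-finger gene Zfp467 (1.89) and the cullin gene Cul9 (1.75). Ifi27l2b, of an interferon-induced family, rose from -0.07, -0.12 and -0.11 to 1.56, 1.59 and 1.55 (adjusted p = 8.3e-11).

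A few genes of other cell types moved too. The mural and fibroblast receptor gene Pdgfrb was well above background on 0 of 3 arrays at 4 h (-0.34, -0.18 and -0.26) and 3 of 3 at 24 h (1.06, 1.10 and 1.09), at least 2.33-fold higher (adjusted p = 4.1e-09). S100a4 rose by 0.81, Fbln1 by 0.54 and the endothelial gene Vwf by 0.68. Other probes differed by 0.59 and 0.15 for S100a4 and by 0.27 for Fbln1. Of the same lists, Kdr, an endothelial receptor gene, was at least 1.24-fold higher at 4 h (adjusted p = 0.0012), with 3 of 3 arrays well above background then and 0 of 3 at 24 h. Cd74 differed by -0.29 (adjusted p = 0.0033, with 1 of 3 arrays above background at 24 h). Both calls were lost with median centring. Prrx1, a fibroblast marker, fell (-0.27, adjusted p = 0.028), but was not called in 11 alternatives, among them the loss of replicate 2 or 3 at 4 h or of replicate 1 or 3 at 24 h (-0.26 to -0.19). Col1a1 (adjusted p = 0.46), Col1a2 (adjusted p = 0.88), Thy1 (adjusted p = 0.61) and Vim (adjusted p = 0.32) were not called. A second Col1a1 probe was higher at 24 h (0.21, adjusted p = 0.039 over all kept probes in limma). The medians of the 4 h and 24 h arrays over 10 measured fibroblast markers were -0.15 and 0.05, and over 6 glial markers -0.14 and -0.15. The part of other cell types in any result was not tested. Of 15 housekeeping genes 4 rose and 4 fell, Actb and Pgk1 being among those not called (-0.10 and -0.01).

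Several of the genes above changed differently in the next step, from 24 h to 48 h. Rgs2 fell by 3.79 and then moved by 0.07 from 24 h to 48 h, and the test of the difference between its 2 steps gave adjusted p = 2.0e-10. For Fst the second fall (-2.47) was larger than the first (-1.51), with adjusted p = 3.4e-05 for the difference. Vip rose and then fell (-1.75, adjusted p = 2.0e-08), and so did Steap1 (-1.01, adjusted p = 5.2e-09). Mad2l1 fell in both, with differences of -1.09 and -0.52 (adjusted p = 0.031 for the difference between them). The 24 h arrays enter both steps with opposite sign, so an array effect at 24 h would part them as well.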

How the data were processed

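The data were 12 two-colour 60-base oligonucleotide arrays of rat genes, 4 on each of 3 slides. Per the file headers, the deposited spot intensities came from Feature Extraction 9.5.1.1, with probes placed on build rn3. The authors' own log2 ratios, deposited as a value table that runs red over green, served as an alternative; the submitters' processing notes name limma without a version. The scale of the table's values was 0.639 to 0.690 of the scanner's log ratios in slope, a difference not explained in the sources used here.

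Mean signals were background-corrected with normexp (offset 50) and loess-normalized within each array in limma 3.58.1 (R 4.3.3), with control and outlier-marked spots at weight 0. Signs were turned to forskolin over reference. Outlier spots were left out, spots of a probe averaged, and the brightest kept probe taken for each gene. Of the probes, 20630 were kept, those well above background in a channel on all 3 arrays of a time point, for 17803 genes; 6 genes lacked a value on 1 or more of the 6 arrays. Names were brought up to date through RefSeq's table (GRCr8) by accession or synonym. lmFit and eBayes fitted 4 time means over all 12 arrays, which share 1 estimate of the spread (8 residual degrees of freedom before pooling), and p-values were adjusted by Benjamini-Hochberg over all genes. SE is the fit's standard error. A gene not well above background in the forskolin channel on all 3 arrays of a time has only a bound there, written "at least N-fold": the brighter mean over, per array of the dim group, the higher of the gene's own signal and the lowest signal well above background. Such a bound uses the forskolin channel alone, so it can exceed the fold of the log2 ratios. The adjusted p beside it is that of the log2 ratios and does not test the bound. The channels are not dye-swapped, so such bounds are open to dye bias.

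Genes named with array values or an adjusted p were the 20 largest rises and falls called with the same sign in 3 of 3 replicate pairs, up to 4 called members of each list, and a set always given. Other members are examples chosen after their values were seen, as were the promoters and probes printed. Members and lists were chosen with earlier results of these data known. Same-numbered samples shared a slide. The deviations of same-numbered 4 h and 24 h samples from their group means correlated at 0.474, 0.143 and 0.193. However, 4 h replicate 3 correlated more with 24 h replicate 2 (0.283), so pairing by number was clear only for replicate 1. The main fit took no account of slide, and a fit with the replicate block was an alternative. The statistics were tested on simulated data with independent errors on each array, which could not test an effect of shared slides. Figures were drawn with matplotlib 3.10.9. The number of arrays limits the precision.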

Additional observations from a re-analysis of the deposited data

How the results depend on the processing

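Alternatives changed one choice at a time, except that 1 added setting took off a median after median centring. With the replicate block, 7696 genes were called, 4080 higher and 3616 lower, and no named gene's call changed, nor any list count by over 1.5 times. Leaving out each of the 6 arrays in turn gave 5951 to 6253 genes called, 3235 to 3420 higher and 2710 to 2833 lower, with 225 to 236 past 2-fold upward and 131 to 144 downward. The counts past 2-fold were 528 higher and 302 lower with a normexp offset of 0, 930 and 584 with Agilent's processed signals, and 217 and 131 without background correction; the cause was not tested. Median centring in place of loess moved the median of all genes by 0.070 in place of 0.004, and called 3355 genes, 690 lower, 79 of these at least 2-fold. It called 23 S-phase, 18 mitosis, 6 ribosome biogenesis, 5 purine and polyamine and 1 respiratory chain genes lower; the cause was not tested. With each array's median over genes taken off afterwards, a setting chosen after seeing the data, 5445 genes were called. Quantile normalization of average intensity leaves log ratios as they are by construction. Directions turned only in genes that were not called. Without background correction Sox10 was at -0.046. With processed signals Sox10 was at -0.15 and Col1a2 at -0.010. With median centring Cdkn1a was at 0.11, Mog at 0.050 and Col1a1 at 0.086, and with the median over genes taken off Gap43 was at -0.051 and Sox10 at -0.065. In the green channel alone Col1a2 was at -0.025 and Cd68 at -0.023, and over the mean of all probes Col1a1 was at 0.071. Leaving out single arrays gave Sox10 -0.014 to 0.043, Col1a2 -0.034 to 0.13, Mog -0.12 to 0.013, Gap43 -0.040 to 0.10 and Twist1 -0.011 to 0.21. Most calls lost under an alternative were of Rplp1, Prrx1, Junb, Btg2, Cdkn2c and Cdkn1b, which lay near the threshold. For dim probes the offset of 50 limits the size of a difference.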

Other observations

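Some gene groups have no place in the comparison above. Of 27 targets of actin signalling through SRF and YAP, 8 rose and 9 fell. Ccn1, a matrix-associated YAP target, was well above background on 0 of 3 arrays at 24 h and at least 1.64-fold higher at 4 h (adjusted p = 6.3e-06 in limma), though another probe differed by -0.16. The tropomyosin gene Tpm4 differed by -0.77, and the focal adhesion gene Zyx by 0.66. Of 31 Wnt and Notch genes 7 rose, such as the ligand gene Jag2 (0.68), and 6 fell, such as the receptor gene Fzd3 (-0.72), shares near the 20.9% and 17.8% of all genes. Of 28 FoxO targets 10 rose and 4 fell. Klf15 rose from -0.21, -0.03 and 0.02 to 1.02, 0.97 and 0.74 (adjusted p = 3.4e-07), with 2 of 3 arrays well above background at 4 h, and the mitochondrial dismutase gene Sod2 fell (-0.43).

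Of 10 fibroblast markers measured 3 rose and 1 fell. Of 7 leukocyte and endothelial markers 1 rose and 2 fell, and of 6 glial markers 1 rose and 0 fell. Of 2359 genes with several kept probes, 48 had probes called in opposite directions, among them Dclk1 and Ero1a (-0.50 and 0.21).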
